A study of Oryza sativa with 81 samples.

Results

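The 200 genes described here are the most abundant genes of rice that were counted far more in young panicles than in young seedlings or filling panicles. They were chosen by their measured tissue means: a young panicle mean plus 0.1 CPM (the usual scaling of counts to the library total) at least 32 times that of each other tissue, over all lines, and then the highest young panicle means. Of 38714 gene models, 295 passed the 32-fold limit and 200 were kept. Differences between tissues therefore describe the choice and carry no test. Differences between lines within young panicles were not used in it, but the mean over the lines was. A gene that was low in some lines could thus enter through the lines where it was high. CPM values were scaled to a library's counts on the 38600 gene models outside identifier block 00, a group of 114 models.

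A rice panicle is the branched inflorescence that bears the spikelets. In a young panicle the spikelets and their floral organs are still forming, and the anthers pass through the differentiation of the tapetum, the nurse layer of the pollen, and through meiosis. A filling panicle carries fertilised grains whose endosperm lays down starch and storage proteins. Genes restricted to young inflorescences commonly act in floral organ formation or in anther and pollen development.

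Total RNA of field-grown plants was sequenced after removal of ribosomal RNA, in a study of heterosis. The 5 first-generation hybrids were WY998 (WFB crossed with R998), WY308 (WFB with R308), RY998 (RFB with R998), RY308 (RFB with R308) and WR (WFB with RFB), and the 4 parents were the lines WFB, RFB, R998 and R308. Every line had 3 libraries of young panicles (replicates 4 to 6), 3 of young seedlings (1 to 3) and 3 of filling panicles (7 to 9), 81 in all. The labels name the panicle stages without a length or sampling day, and do not say how many plants a library held. Identifiers of the gene models were paired with no names: 0 of 38714 were found among 39387 annotated genes of another assembly. What each gene encodes is not stated here, and the tissue labels were not checked against marker genes.

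Young panicle libraries held 32279592 to 41836959 counts. A few libraries stood apart. RY308 replicate 4 of the young panicles had 893 CPM on the 200 genes that the same rule picks for filling panicles, against at most 681 CPM in the other young panicle libraries and a median of 571 CPM. Among filling panicle libraries, R308 replicate 9 and RY308 replicate 8 had counts on 37377 and 34375 gene models, against at most 29270 in any other library of the study. Repeating the choice of genes without the young panicle library left 197 of the 200 in place, and without the pair of filling panicle libraries 194. Leaving out RY308 replicate 4 moved 1 count of calls between lines by over 1.5 times, that of RY308 against its parents.

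The 200 genes took 3.95% ± 0.326 of the counts of young panicles (SD, n = 27 libraries). Their summed level was 31173 CPM in the lowest young panicle library, 39191 CPM at the median and 45541 CPM in the highest, against 49.1, 118 and 205 CPM in young seedlings and 165, 304 and 743 CPM in filling panicles. No young panicle library overlapped any library of another tissue. The lowest and highest young panicle libraries were WR replicate 6 and WFB replicate 6. Among the hybrids the sum stood at 40455 ± 1539.7 CPM for WY998, 39312 ± 3294.5 in WY308, 42525 ± 1414 in RY998, 40176 ± 1684 in RY308 and 34352 ± 2772 in WR, and among the parents at 44426 ± 988 in WFB, 37506 ± 2713 in RFB, 39282 ± 892 in R998 and 37876 ± 1293 in R308 (SD, n = 3 each). In whole panicles, fewer cells of a type and less RNA per cell cannot be told apart.

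**Figure D1:**
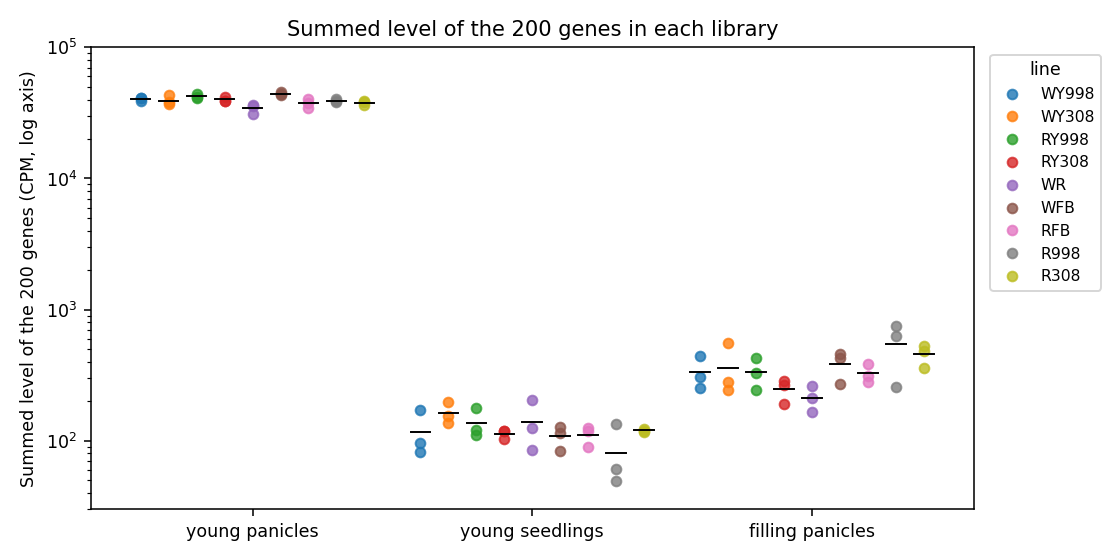
Summed level of the 200 genes in CPM (log axis) in each of 81 libraries, by tissue and line; points are libraries and bars are means of 3. Young panicle libraries sit between 31173 and 45541 CPM, seedlings between 49.1 and 205 CPM and filling panicles between 165 and 743 CPM, a gap fixed by the choice of genes.

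Single genes of the set had young panicle means of 19.2 to 1893 CPM, with a median of 78.5 CPM. The median gene stood at 0.0657 CPM in seedlings and 0.442 CPM in filling panicles, and 19 of the 200 had no count in any of the 27 seedling libraries. For 178 genes the filling panicle was the tissue with the higher remaining level, and for 22 the seedling. The ratio over that tissue had a median of 99.7 and reached 5416. Counts outside young panicles were concentrated in a few genes: 10 genes held 58.4% of the summed seedling level and 10 held 42.4% of the filling panicle level.

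The limits of the choice were not marked by gaps. The last 2 genes kept had 19.5 CPM (OsR498G0611931600.01) and 19.2 CPM (OsR498G0101284300.01), and the next 2 had 19.1 CPM (OsR498G1120094900.01) and 18.4 CPM (OsR498G0611526800.01). At the 32-fold limit, OsR498G0307218100.01 with a ratio of 32.07 and OsR498G0612420500.01 with 32.08 lay just inside, and OsR498G0102487900.01 with 31.98 and OsR498G0613020200.01 with 31.92 just outside. When the rule was applied line by line, 151 (R308) to 192 (RY308) of the 200 genes passed 32-fold, 113 passed it in all 9 lines, and 197 passed 8-fold in all 9. Each of these 2 lines includes a filling panicle library that stood apart, R308 replicate 9 and RY308 replicate 8. The part of those libraries in the counts by line was not tested. With a 16-fold limit 550 genes passed and 124 of the 200 were kept. With a 64-fold limit 153 passed, 127 of them in the set, and with a floor of 1 CPM 130 passed, all of them in the set.

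A small number of genes carried much of the level: 85 of the 200 exceeded 100 CPM, 4 exceeded 1000 CPM, and the first 10 held 28.96% of the sum. OsR498G1018152700.01 was the most abundant, at 1893 ± 541 CPM over the 27 young panicle libraries, against 0.0347 ± 0.0561 CPM in seedlings and 16.2 ± 12.0 CPM in filling panicles (SD). OsR498G0510793900.01 followed with 1734 ± 755 CPM, against 0.0154 ± 0.0431 and 1.24 ± 0.667 CPM. Per length of the gene model, OsR498G0100558200.01 was highest with 2007 ± 875 FPKM (fragments scaled by model length and library total), then OsR498G0510793900.01 with 1910.3 ± 825 FPKM. These leaders differed in how their level was spread over the lines.

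The gene models of the set were close in length to other genes, with a median of 1359 bases (480 to 3626) against 1471 bases over the 24748 genes tested in young panicles. Models under 1000 bases made up 21.5% of the set and 21.8% of the tested genes. All of the identifier blocks 1 to 12 held some of the 200, from 10 to 32 genes. Block 10 held 19, or 0.880% of its gene models, and the other blocks had 0.407% to 0.614%. Where identifiers were at most 3 steps apart, genes of the set formed 4 runs with 13 genes in all.

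The longest run lay in block 10, where 7 genes of the set fell within 11 consecutive identifiers. Together they held 3454 ± 972 CPM in young panicles (SD, n = 27), or 8.74% of the summed level of the 200 genes. The most abundant gene of all, OsR498G1018152700.01, closed this run, and the other 6 had means of 30.8 to 647 CPM. Whether these models share reads as near-identical copies is not stated in the files, so their separate levels are uncertain. Over the 27 young panicle libraries the log2 levels of 6 of the 7 genes varied in parallel, OsR498G1018152000.01 being the exception. Pairs of all 7 had a median correlation of 0.88 (lowest 0.17, highest 0.98), against a median of 0.10 over all pairs of the 200.

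Replicates of one line lay far apart in it. The summed level of the run was 4888, 2687 and 2192 CPM in the WY998 replicates, 2055, 1726 and 3857 CPM in the WY308 replicates, and 3277, 2469 and 5018 CPM in the R998 replicates. In each of these lines the libraries were farther apart than the highest and lowest line means, 4240.2 CPM in RFB and 2349 CPM in R308. OsR498G1018152700.01 did not pass the test over the lines (adjusted p = 0.465, edgeR quasi-likelihood test), and its line means ran from 1296 CPM in R308 to 2317 CPM in RFB. OsR498G1018152000.01 went apart from the run and was named after its values were seen, with a median correlation of 0.30 with the other 6 genes and an adjusted p of 1.33e-04 over the lines. It was lower in WFB than in RFB by 2.04 ± 0.42 (SE) on the log2 scale (adjusted p = 0.00149, edgeR), whereas OsR498G1018152700.01 differed there by −0.22 ± 0.34 (adjusted p = 0.715).

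**Figure D2:**
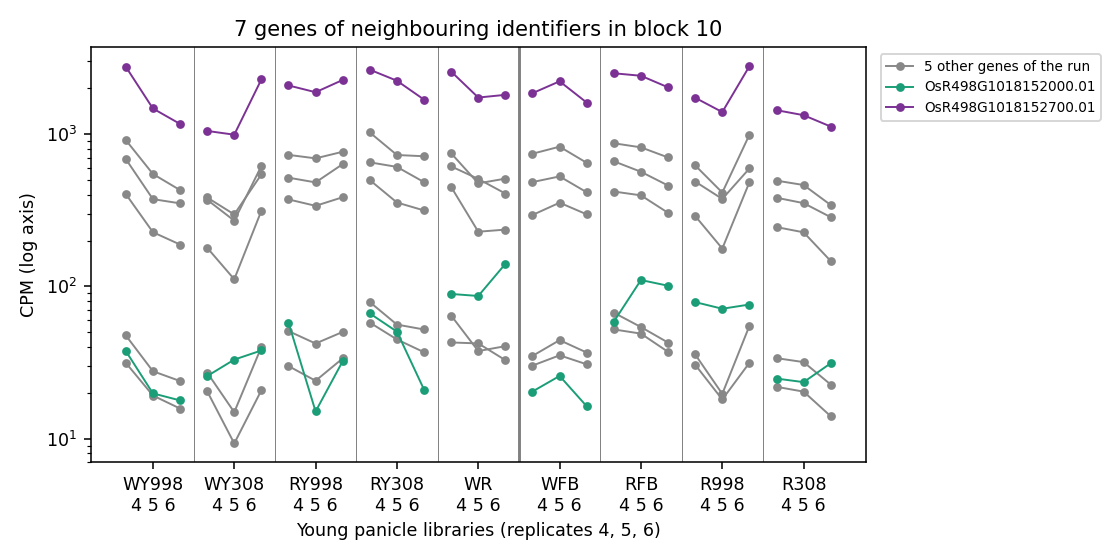
Levels in CPM (log axis) of the 7 genes of the block 10 run in the 27 young panicle libraries, hybrids left and parents right; points are libraries, and lines join the replicates of a line. The 6 other curves run in parallel between replicates, OsR498G1018152700.01 at the top. OsR498G1018152000.01 does not run with them, scatters between replicates too, and is lower in WFB than in RFB.

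All 200 genes passed the filter on low counts and were tested with the 24748 genes of the young panicle fit. Levels differed over the 9 lines for 174 of them, or 87%, where 73.2% of all tested genes did (edgeR quasi-likelihood F test, adjusted p under 0.05). The set was chosen for abundance, and the tested genes beside it, here and below, were not matched to it in level. The ratio of the highest to the lowest line mean had a median of 2.30 in the set and 1.75 over all tested genes, and reached at least 4 for 22% of the set and 14.1% of the tested genes. Replicates of a line also lay farther apart: the pooled SD of log2 CPM had a median of 0.296 in the set and 0.196 over all tested genes. The line with the lowest mean was WR for 82 of the 200 genes and R308 for 38, and the line with the highest mean was R998 for 44 and WFB for 40. Shares over all tested genes are not given for these counts, which therefore describe the set only.

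A few genes were level across lines. OsR498G0816035400.01 had line means of 214 ± 6.18 CPM (WFB) to 247 ± 17.9 CPM (RY308), a ratio of 1.15, and OsR498G0713501900.01 had 38.8 ± 2.80 CPM (R308) to 46.6 ± 2.28 CPM (R998), a ratio of 1.2001 (SD, n = 3). Neither passed the test over the lines (edgeR, adjusted p = 0.144 and 0.523). They stand at the bottom of the set by construction, since they were picked for the smallest ratios.

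The lines were spread along 1 main direction. The first principal axis of the log2 CPM of the 200 genes held 59.0% of their variance over the 27 young panicle libraries, and the second 10.2%. The first axis of all other tested genes held 41.1% of theirs. A library's score is given as the root-mean-square log2 deviation of the 200 genes along the axis, positive on the side of WFB. Mean scores were 0.49 in WY998, 0.52 in WY308, 0.42 in RY998, −0.18 in RY308 and −0.91 in WR, and 0.33 in WFB, −0.51 in RFB, −0.69 in R998 and 0.52 in R308. Thus the means of WY998, WY308 and RY998 lay on the side of WFB and R308, and that of WR on the side of RFB and R998. WR libraries scored between −1.08 and −0.69 and overlapped those of RFB, down to −0.82, and of R998, down to −0.96.

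Along this axis 63 genes had a correlation of at least 0.7, 26 of at most −0.7, and 111 lay between. The 63 genes summed to 18709 ± 2738 CPM in WY998, 18865 ± 966 in WY308, 18181 ± 3187 in RY998, 14321 ± 820 in RY308 and 7533 ± 1582 in WR, and to 19898 ± 941 in WFB, 9901 ± 1873 in RFB, 10426 ± 1865 in R998 and 18038 ± 799 in R308 (SD, n = 3). The 26 genes ran the other way, with 2820.5 ± 806 CPM in WY998, 2790.3 ± 291 in WY308, 3752 ± 794 in RY998, 4504 ± 819 in RY308 and 7129 ± 898 in WR, and 2837.5 ± 362 in WFB, 6726 ± 798 in RFB, 6143 ± 736 in R998 and 2834.5 ± 133 in R308. These groups were drawn from the values they summarise, so the sums are a description and carry no test. In WR the 63 genes stood near the level of the 26, whereas in WFB they summed to several times as much.

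R998 replicate 5 departed from its line, with a score of −0.23 against −0.96 and −0.90 in replicates 4 and 6. RFB replicate 4 did so too, with −0.18 against −0.82 and −0.52 in replicates 5 and 6. Without R998 replicate 5, WFB against R998 had 56 genes higher and 41 lower in place of 65 and 43. RFB against R998 then had 18 and 51 in place of 13 and 61. As a description over 27 libraries that fall into 9 lines, the score had a correlation of 0.02 with the log2 library total and −0.70 with the scaling factors of the trimmed mean of M-values (TMM). The score from CPM without that scaling had a correlation of 0.999 with it. With the first axis of the other tested genes the correlation was 0.48.

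**Figure D3:**
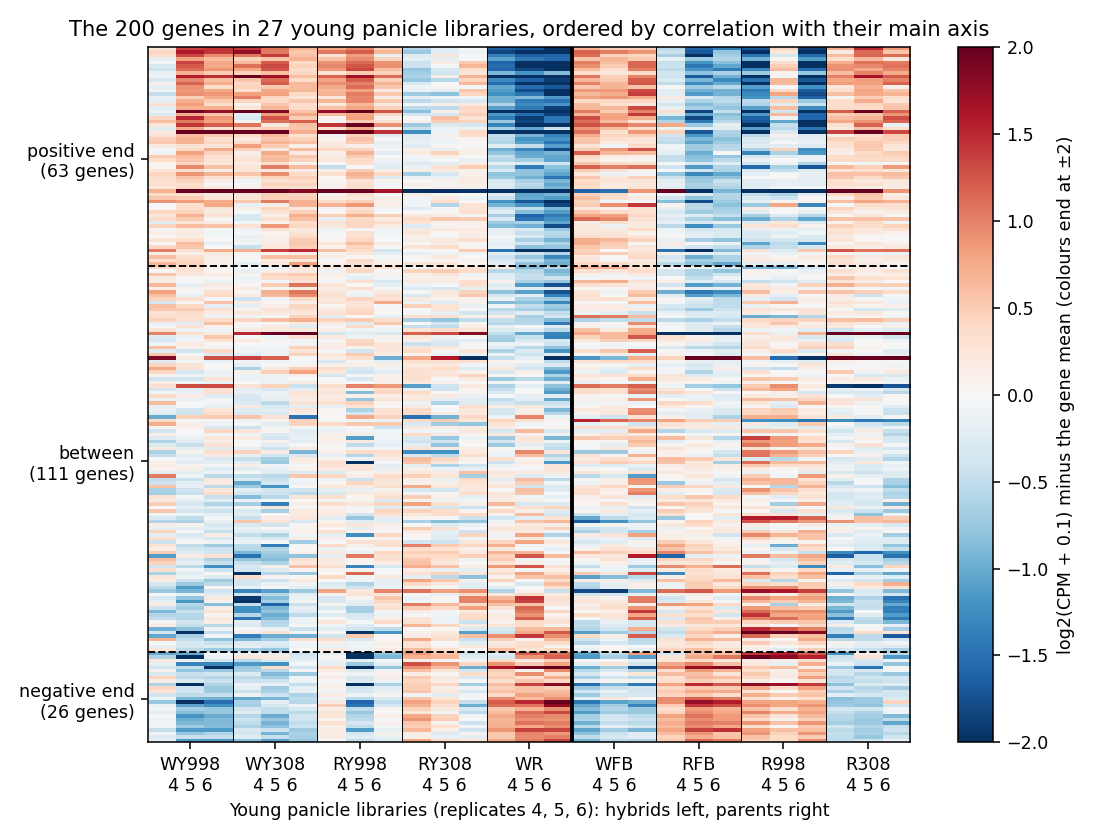
log2(CPM + 0.1) of the 200 genes minus the gene mean (colours end at ±2) in 27 young panicle libraries, hybrids left of the thick line and parents right, genes ordered by their correlation with the main axis. The 63 genes at the top are lowest in WR, RFB replicates 5 and 6 and R998 replicates 4 and 6, and the 26 at the bottom are high there.

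The parents of WR, WFB and RFB, differed in 111 of the 200 genes: 81 were higher and 30 lower in WFB, where 11.1% and 10.4% of all tested genes were higher and lower. The median absolute log2 difference was 0.72 in the set and 0.22 over all tested genes. R998 and R308 differed in 104 genes, 56 higher and 48 lower in R998, where the background was 12.7% and 13.4%. Thus 40.5% of the set was higher in WFB than in RFB and 28% higher in R998 than in R308, well above the background in both cases. Whether these pairs differed from each other was not tested.

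In the other 4 pairs the shares lay on both sides of the background. In WFB against R998, 65 genes were higher and 43 lower (background 22.1% and 21.7%), with 52 of the 63 genes of the WFB side of the axis, which were chosen on these libraries, among those higher. In WFB against R308, 36 were higher and 17 lower (18.5% and 18.2%), and 8.5% of the set was lower. This count of 53 fell to 33 without WFB replicate 6 and to 35 without R308 replicate 6. In RFB against R998, 13 were higher and 61 lower (20.8% and 21%), and the count of 74 was 44 without RFB replicate 6 and 49 without R998 replicate 4. In RFB against R308, 41 were higher and 70 lower (25.5% and 24.1%). Of the 200 genes 26 were called in none of the 6 pairs, a smaller share than the 26.6% of all tested genes. In all 6 pairs 1 was called, against 0.727% of all tested genes.

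**Figure D4:**
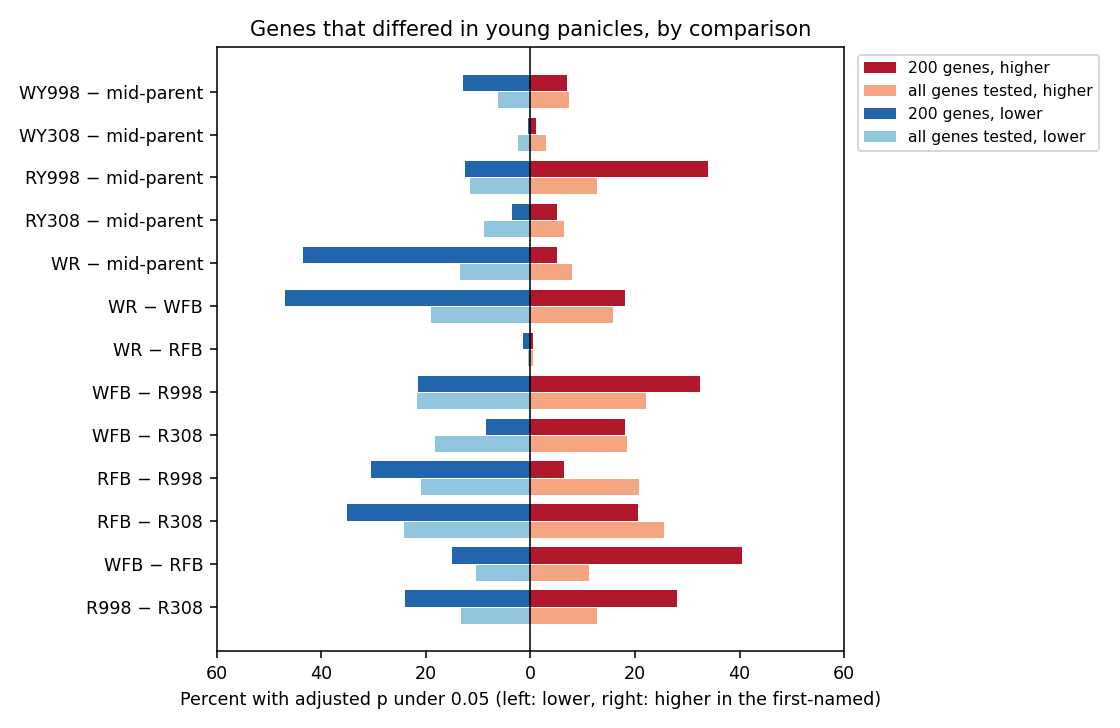
Percent of the 200 genes (deep bars) and of all 24748 tested genes (pale bars) with adjusted p under 0.05 in each comparison of young panicles; bars to the right are higher and to the left lower in the first-named line. The widest gaps between deep and pale bars are WR against its mid-parent and against WFB, RY998 against its mid-parent, and WFB against RFB.

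WR young panicles lay below the mean of their parents in much of the set. Against the arithmetic mean of WFB and RFB, 87 genes were lower and 10 higher in WR, where 13.4% and 8.01% of all tested genes were lower and higher (edgeR quasi-likelihood test, adjusted p under 0.05). The median log2 deviation was −0.31 in the set and −0.01 over all tested genes. DESeq2 with a geometric mid-parent called 87 lower and 21 higher (14.3% and 11.5%). The edgeR count of 97 fell to 54 without WR replicate 6, the library with the lowest summed level. Against WFB alone, 94 genes were lower and 36 higher (19.1% and 15.8%), and against RFB alone 3 were lower and 1 higher (0.509% and 0.545%). By DESeq2 12 were lower and 1 higher in WR than in RFB (1.45% and 1.14%), and those 4 calls of edgeR became 12 without WR replicate 4, 8 without R998 replicate 5 and 2 without WR replicate 6.

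OsR498G0510793900.01 is the most abundant example. It had 806, 847 and 709 CPM in the WR replicates, against 2759, 2831 and 2604 CPM in WFB and 1792, 1263 and 1052 CPM in RFB. All WR libraries lay below every library of both parents. The deviation from mid-parent was −1.44 ± 0.24 (SE) on the log2 scale with an edgeR adjusted p of 4.63e-04, and the difference from RFB was −0.81 ± 0.25 (adjusted p = 0.131). OsR498G0100558200.01, on the opposite side of the axis, had 1812, 2461 and 2269 CPM in WR, against 707, 927 and 1071 CPM in WFB and 1928, 2308 and 1835 CPM in RFB. Its WR libraries overlapped those of RFB and exceeded all of WFB, with a deviation of 0.54 ± 0.17 from mid-parent (adjusted p = 0.0286).

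The largest called WR deviation in each direction lost its call when a WR library was left out. Only genes with all WR libraries on 1 side of the mid-parent were considered for this. OsR498G0102634200.01 had 11.5, 17.4 and 21.8 CPM in WR, against 226, 132 and 193 CPM in WFB and 146, 32.4 and 69.4 CPM in RFB, a deviation of −3.04 ± 0.92 (edgeR adjusted p = 0.0228) whose call was lost without any one of the WR libraries (adjusted p = 0.0655 to 0.0779), although its size stayed between −3.28 and −2.84. OsR498G1019013500.01 had 244, 342 and 399.8 CPM in WR, against 72.4, 96.5 and 94.3 CPM in WFB and 215, 303 and 272 CPM in RFB. Its deviation of 0.88 ± 0.20 (adjusted p = 0.00449) was 0.71 without WR replicate 6 and lost its call (adjusted p = 0.0557). The WR libraries of the first lay under all parental libraries, and those of the second overlapped RFB.

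RY998 young panicles lay above the mean of their parents in many genes of the set. Against the mean of RFB and R998, 68 genes were higher and 25 lower in RY998, where 12.7% and 11.6% of all tested genes were higher and lower, and the median log2 deviation was 0.17 in the set and −0.02 over all tested genes. Tested against each parent, 35 genes lay above both and 7 below both, against 3.39% and 1.85% of all tested genes, and 34 of the 35 belonged to the 63 genes of the WFB side of the axis. That axis was drawn from the same libraries, with RY998 on its positive and both parents on its negative side, so this overlap is largely fixed by the choice of the 63. The 93 calls against mid-parent fell to 46 without RY998 replicate 5, and the 42 beyond both parents to 11 without that library and to 21 without R998 replicate 4. RY998 replicate 5 had the highest axis score of its line, 0.68, against 0.35 and 0.24 in replicates 4 and 6.

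In OsR498G0510793900.01 the RY998 replicates had 1812, 3022 and 1705.5 CPM, against 1792, 1263 and 1052 CPM in RFB and 680.3, 1078 and 506 CPM in R998. The deviation from mid-parent was 1.18 ± 0.21 on the log2 scale (edgeR adjusted p = 5.53e-04), and 2 of the 3 RY998 libraries exceeded all of both parents. OsR498G1120765700.01 fell in RY998 by 2.19 ± 0.46 on the log2 scale (adjusted p = 0.00166), with 24.2, 6.03 and 10.4 CPM against 16.7, 34.7 and 39.4 CPM in RFB and 116, 111 and 82.5 CPM in R998. It also fell in WY998, by 1.99 ± 0.46 (adjusted p = 0.00588), with 18.3, 5.61 and 17.1 CPM against 11.1, 14.5 and 15.97 CPM in WFB. Its libraries in both hybrids were under every R998 library and overlapped those of the other parent.

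The remaining crosses deviated in fewer genes. In WY998 14 genes were higher and 26 lower than the mid-parent (background 7.43% and 6.25%), with 3 above and 3 below both parents (2.05% and 0.881%). DESeq2 with a geometric mid-parent called 31 higher and 30 lower (13.5% and 6.35%). The edgeR count of 40 was 12 without WY998 replicate 5, 21 without R998 replicate 4 and 26 without WFB replicate 6, and the 6 genes beyond both parents became 2 without WFB replicate 6 and 13 without WY998 replicate 6. In RY308 10 were higher and 7 lower (6.34% and 8.98%), with 2 above and 2 below both parents (1.49% and 1.27%). Those 17 calls became 10 without RY308 replicate 4, 5 higher and 5 lower, and 7 without RY308 replicate 5. In RY308 5% of the set was higher and 3.5% lower, both shares below those of all tested genes.

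In WY308 2 genes were higher and 1 lower than the mid-parent (2.88% and 2.48%), with 1 call left without WY308 replicate 4. None lay above or below both parents, where 0.125% and 0.0849% of all tested genes did; at an unadjusted p under 0.05 against each parent the count was also 0 (0.756% above and 0.457% below over all tested genes), and it was 0 by DESeq2 (0.186% and 0.0971%). Both parents of WY308 had positive axis scores and 53 of the 200 genes differed between them. OsR498G0917490000.01, one of the 2 higher, had 79.5, 64.5 and 62.3 CPM in WY308, against 28.5, 33.5 and 42.1 CPM in WFB and 59.6, 54.9 and 52.9 CPM in R308. Its deviation of 0.62 ± 0.15 (edgeR adjusted p = 0.0135) was lost without WY308 replicate 4 (adjusted p = 0.0858), although the WY308 libraries lay above all of the parents.

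OsR498G0714094200.01 was the single gene lower in WY308, with 32.5, 42.8 and 43.5 CPM, against 111, 93.0 and 195 CPM in WFB and 32.8, 59.2 and 26.3 CPM in R308. The WY308 libraries overlapped those of R308. The deviation of −1.07 ± 0.29 (edgeR adjusted p = 0.0310) was lost with a geometric mid-parent (adjusted p = 0.0637) and without WFB replicate 6 or any WY308 library (0.0524 to 0.152). In RY308, OsR498G1019070300.01 had 45.63, 45.64 and 48.1 CPM, against 11.3, 30.5 and 31.7 CPM in RFB and 11.1, 25.3 and 12.2 CPM in R308. Its deviation of 1.19 ± 0.36 (adjusted p = 0.0256) was lost without RFB replicate 4, R308 replicate 4 or any RY308 library (0.0528 to 0.0736), while every RY308 library lay above all parental ones.

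WR lay beyond both parents in 2 genes, both below (0.319% of all tested genes), and in none above (0.19%). At an unadjusted p under 0.05 against each parent, 27 genes lay below and 1 above (6.49% and 3.67% of all tested genes). DESeq2 called 11 below and 0 above (1.07% and 0.594%). Leaving out single libraries gave 0 to 10 genes, 0 without WR replicate 6, 10 without WR replicate 4, 6 without R998 replicate 5 and 4 without WY308 replicate 6, and 1 without WFB replicate 4 or 5, RFB replicate 4 or 6, R998 replicate 4, R308 replicate 4, WY308 replicate 5, RY998 replicate 4, RY308 replicate 5 or WR replicate 5. By means alone, WR was below both parents in 108 of the 200 genes, between them in 54 and above both in 38. Over all tested genes these positions held 32.5%, 28.7% and 38.8%, so the set had a larger share below both parents and a smaller share above both.

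Averaged over the 5 crosses, deviations of the set were small, but crosses that deviated in opposite directions offset each other in this average. The median log2 deviation was −0.31 in WR and 0.17 in RY998. The mean deviation from mid-parent differed from 0 for 9 genes, 8 lower and 1 higher in hybrids, against 3.24% and 1.42% of all tested genes. DESeq2 with a geometric mid-parent called 9 lower and 5 higher (3.54% and 8.18%). The median of the mean deviation was −0.02 on the log2 scale, and −0.01 over all tested genes. In 5 of 5 crosses, 10 of the 200 genes deviated with the same sign, 7 below and 3 above, against 6.81% of all tested genes. The 9 edgeR calls became 6, all lower, without R998 replicate 5, and 3 to 5 without WFB replicate 5 or 6, RFB replicate 5, R998 replicate 4, or replicate 5 of WY998, WY308, RY998 or RY308. Of those named, OsR498G0305445700.01 was lower by a mean of 0.59 ± 0.15 (log2 deviation −0.59, edgeR adjusted p = 0.0230), with hybrid means of 32.8 to 41.2 CPM and parental means of 39.8 to 80.7 CPM. OsR498G0101234300.01 was higher by 0.21 ± 0.06 (adjusted p = 0.0368), with hybrid means of 102 to 148 CPM and parental means of 94.95 to 121 CPM, and lost its call without any one of 15 libraries (adjusted p = 0.0506 to 0.0781).

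The effect of R998 against R308 was compared between crosses with WFB and crosses with RFB. It differed for 8 genes. In all 8 the log2 effect, R998 cross minus R308 cross, was lower with WFB than with RFB. Of all tested genes, 6.17% had a lower effect with WFB and 4.26% a higher one. No gene of the set had a higher effect with WFB by edgeR or by DESeq2 (5.23% of all tested genes by DESeq2). At an unadjusted p under 0.05 by edgeR, 7 did (11.3%).

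The widest range between lines belonged to OsR498G0408404100.01, a model of 792 bases in block 4. It had 0.625, 0.406 and 0.532 CPM in RFB, from 51 counts in all, against 71.1, 66.2 and 70.3 CPM in WFB, 52.2, 37.6 and 67.5 CPM in R998 and 226, 238 and 246 CPM in R308. The RFB libraries were far below every other library. The difference of WFB from RFB was 7.11 ± 0.37 on the log2 scale, or 138-fold, with an edgeR adjusted p of 6.71e-12, that of RFB from R998 −6.72 ± 0.37 (9.21e-13), and that of RFB from R308 −8.92 ± 0.38 (9.12e-15). Reads of every line were assigned to a single set of models, and a low count cannot tell a silent gene from reads that were not assigned.

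Hybrids of RFB carried intermediate levels of OsR498G0408404100.01. RY998 had 32.03, 35.4 and 34.1 CPM, RY308 had 94.1, 104 and 149 CPM, and WR had 29.6, 20.3 and 16.8 CPM, none of which overlapped RFB. Hybrids of WFB had 82.7, 52.0 and 46.1 CPM in WY998 and 119.7, 164 and 174 CPM in WY308. The deviation from mid-parent did not pass the test in WY998 (0.10 ± 0.21, edgeR adjusted p = 0.819), WY308 (0.02 ± 0.22, 0.982), RY998 (0.45 ± 0.25, 0.197) or RY308 (−0.10 ± 0.24, 0.827), and was −0.71 ± 0.25 in WR (adjusted p = 0.0444). WR exceeded RFB by 5.40 ± 0.37 (adjusted p = 1.48e-09), the 1 gene of the set higher in WR than in RFB.

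RFB was also the lowest parent at this gene's residual level in filling panicles, where it had 0.0457 ± 0.0396 CPM from 4 counts, against 2.63 ± 0.810 CPM in WFB, 2.88 ± 1.34 in R998 and 3.72 ± 0.385 in R308 (SD, n = 3). The gene with the next identifier, OsR498G0408405300.01, also belongs to the set and was named after its values were seen. It had 14.4, 13.3 and 11.8 CPM in WR, 23.8, 23.4 and 23.8 CPM in WFB and 15.5, 12.6 and 15.8 CPM in RFB. Its line means ran from 13.2 CPM in WR to 28.9 CPM in WY998, a range of 2.18-fold, and RFB stood at the low end of it without being set apart.

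Other large parental differences were named by a rule that asked for replicates that do not overlap, so their separation was fixed by that choice. OsR498G0306811500.01 had 17.3, 16.04 and 32.2 CPM in WFB, against 129.6, 139 and 107 CPM in RFB, 200.4, 183 and 156 CPM in R998 and 34.5, 48.3 and 32.3 CPM in R308. WFB was lower than R998 by 3.04 ± 0.25 on the log2 scale (edgeR adjusted p = 1.27e-09). WR, with 39.3, 63.4 and 43.6 CPM, was lower than RFB by 1.38 ± 0.24 (adjusted p = 0.00265). This was the largest of the 3 differences in that direction between these lines.

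OsR498G0510983700.01 had 70.8, 66.8 and 74.4 CPM in WFB and 46.6, 62.3 and 37.6 CPM in R998, against 8.62, 7.02 and 9.81 CPM in R308. It was higher in WFB than in R308 by 3.01 ± 0.31 (edgeR adjusted p = 4.51e-08) and higher in R998 than in R308 by 2.47 ± 0.31 (adjusted p = 1.73e-06). OsR498G1120723300.01 had 83.4, 67.8 and 67.5 CPM in RFB, against 20.6, 20.4 and 17.6 CPM in R998, a difference of 1.84 ± 0.18 (adjusted p = 1.53e-08). OsR498G0205004600.01 had 33.1, 40.7 and 19.4 CPM in WFB, 132, 219 and 237 CPM in RFB and 40.1, 23.7 and 67.8 CPM in R308. It was lower in WFB than in RFB by 2.58 ± 0.57 (adjusted p = 0.00261) and higher in RFB than in R308 by 2.05 ± 0.56 (adjusted p = 0.00431).

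Some genes varied widely between replicates. OsR498G0307156500.01 had a pooled replicate SD of 2.0035 on the log2 scale, and line means from 0.0837 CPM in WR to 61.4 CPM in WY308. Its mean over the young panicle libraries, 20.4 CPM, lay near the lower limit of the set. It was kept through the lines where it was high, so its differences between lines are not free of the choice. It had 152, 22.5 and 9.37 CPM in the WY308 replicates, 4.20, 26.4 and 61.5 CPM in WY998 and 45.9, 92.2 and 8.29 CPM in RY998, but 0, 0.0588 and 0.203 CPM in RY308 and 0.140, 0.0560 and 0.0548 CPM in WR. The parents had 0.764, 0.833 and 4.76 CPM in WFB, 18.9, 0 and 1.30 CPM in RFB, 0.0325, 0.335 and 0.128 CPM in R998 and 26.4, 68.1 and 4.82 CPM in R308. RY308 and WR lay under every library of WY998, WY308 and RY998, while the RFB libraries alone ran from 0 to 18.9 CPM.

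Calls for OsR498G0307156500.01 were correspondingly fragile. Its difference of WFB from R308 was −4.02 ± 1.32 (edgeR adjusted p = 0.0201), lost without WFB replicate 4 or 5 or R308 replicate 5 (adjusted p = 0.0776 to 0.103) and, with the replicate number as a block, at −3.61 (adjusted p = 0.0520). The deviations from mid-parent were 4.81 ± 1.28 in WY998 (adjusted p = 0.0143), 4.01 ± 1.25 in RY998 (0.0226) and −7.85 ± 2.0011 in RY308 (0.00950). They were lost without WFB replicate 4 or 5 or WY998 replicate 6 in WY998 (0.0510 to 0.0605), without RFB replicate 5 or 6 or RY998 replicate 5 in RY998 (0.0731 to 0.115), and without RY308 replicate 4 or 5 in RY308 (0.0504 and 0.0523). The difference of R998 from R308 was −7.56 ± 1.84 (adjusted p = 0.00381) and was kept without any single library.

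OsR498G0102634200.01 and OsR498G0408543100.01 varied almost in step over the 27 young panicle libraries, with a correlation of 0.997, although their identifiers lie in blocks 1 and 4. That correlation takes in differences between lines as well as between replicates. The second gene was picked as the one most like the first. In R998 the first had 0.520, 85.6 and 3.29 CPM and the second 0.357, 29.5 and 1.57 CPM, so replicate 5 exceeded replicates 4 and 6 many times over in both. In WFB they had 226, 132 and 193 CPM and 80.0, 55.6 and 76.7 CPM. The difference of WFB from R998 in OsR498G0408543100.01 was 2.76 ± 0.84 on the log2 scale (edgeR adjusted p = 0.0103), and 6.17 without R998 replicate 5. OsR498G0101284300.01 had the largest replicate SD of the set, 2.36, with 13.3, 2.94 and 0.0320 CPM in R998 and 14.9, 26.6 and 0.0868 CPM in RY308.

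**Figure D5:**
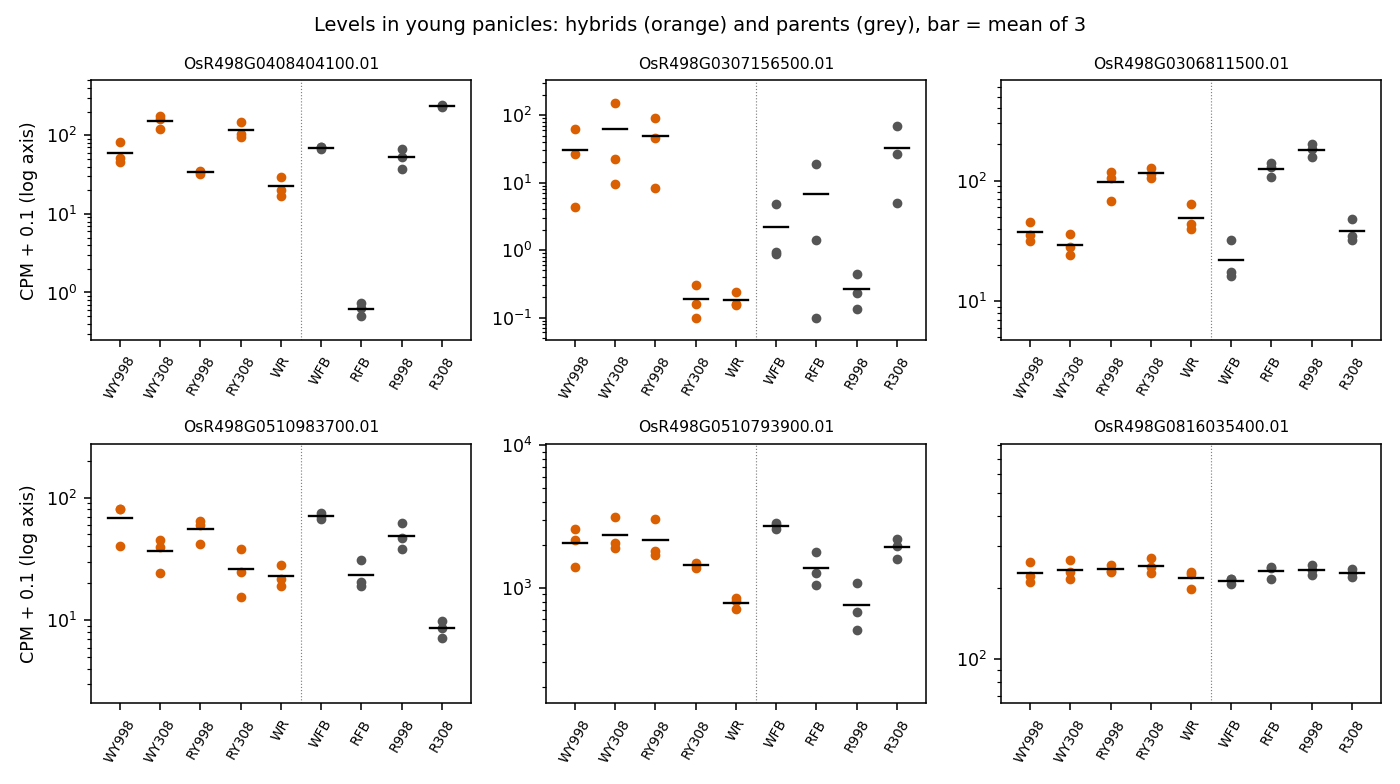
CPM + 0.1 (log axis) of 6 genes of the set in young panicles, by line, hybrids left of the dotted line in orange and parents right in grey; points are libraries and bars are means of 3. OsR498G0408404100.01 is far lower in RFB than in any other line, OsR498G0307156500.01 scatters over replicates, and OsR498G0816035400.01 is level in every line, with means of 214 to 247 CPM.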

How the data were processed

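Labels gave each library's line and tissue, in groups of 3. The authors deposited raw counts of reads per gene model and FPKM values, which match the count scaled by model length and total (100% within 1%). The libraries were stranded and depleted of ribosomal RNA, per the labels' protocols, and HISAT2 is the aligner named in the submitters' processing notes. Aligner version, counter, build and annotation: not given in the sources used here. Levels of near-identical gene copies that split reads are therefore uncertain. Libraries held 29054241 to 45765805 counts, and 0 value columns were matched to no sample. FPKM gave lengths and levels per length and was not tested.

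The set's rule and the lists were chosen with earlier results of these data known. Genes to be named were the 2 highest by CPM and per length, those at the limits, the largest change in each direction per comparison (adjusted p under 0.05, libraries not overlapping or all on 1 side of the mid-parent), the 2 largest and smallest line ratios, and the 2 largest replicate SDs. Others are said to be named afterwards. Without names, the planned gene lists and marker genes were not used here.

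Counts of the 27 young panicle libraries were fitted in R 4.3.3 with edgeR 4.0.16: filterByExpr, TMM, a quasi-likelihood model with a mean per line, two-sided tests and Benjamini-Hochberg adjustment over 24748 genes. Mid-parents were arithmetic, by an offset per gene (weights in steps of 0.1). Fold changes rest on TMM-scaled counts and printed CPM do not. The axis used log2 CPM with a prior count of 2. The fits were tested on simulated data. Alternatives were DESeq2 1.42.0, its size factors, no filter, block 00 left out, a replicate block, a geometric mid-parent, single libraries left out and other limits of the set. Libraries are not stated to come from separate plants, so p-values cover only the spread between them. All 81 pairs of replicates differed by more than sampling noise (chi-square over degrees of freedom between 5.56 and 290.3). Summaries used Python 3.11.15, numpy 2.4.6 and pandas 2.3.3, and figures matplotlib 3.10.9.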

Additional observations from a re-analysis of the deposited data

Results flagged for a closer look

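The effect of R998 against R308 on OsR498G0307156500.01 differed between the crosses with WFB and those with RFB. The interaction was −10.15 ± 2.36 on the log2 scale (adjusted p = 0.00580, edgeR quasi-likelihood test), from means of 30.7 CPM in WY998 and 61.4 CPM in WY308 and of 48.8 CPM in RY998 and 0.0871 CPM in RY308 (9 counts over 3 libraries). Without single libraries it ran from −11.61 to −8.27 (adjusted p = 0.00208 to 0.0242). The replicate SD of this gene was 2.0035 on the log2 scale. Its place in the set rests on the lines where it was high, so this difference is not free of the choice.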

How the results depend on the processing

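Of 702 counts recomputed under an alternative, 649 stayed within 1.5 times their value and 53 moved; of 812 values for single genes, 770 kept direction and call, 42 lost the call and 0 turned. With DESeq2 and the geometric mid-parent, 61 genes deviated in WY998 and 14 in the mean deviation. With DESeq2, 13 differed between WR and RFB, 8 lay beyond both parents in RY308 and 11 in WR, and without a filter 1 in WR. A 16-fold limit passed 550 genes (124 of the set), a 64-fold limit 153 (127) and a floor of 1 CPM 130 (130).

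Leaving out 1 library at a time gave 33 to 57 calls for WFB against R308 and 44 to 78 for RFB against R998, and 2 to 12 for WR against RFB, a comparison added after the data were seen. Against mid-parent it gave 12 to 45 in WY998, 1 to 3 in WY308, 46 to 101 in RY998, 7 to 19 in RY308 and 54 to 105 in WR, and 3 to 12 for the mean deviation. Beyond both parents it gave 2 to 13 in WY998, 11 to 47 in RY998, 3 to 6 in RY308 and 0 to 10 in WR.

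Replicate numbers did not pair the libraries: deviations of same-numbered libraries had correlations of −0.41 to 0.34 (median 0.00 to 2 decimals, −0.00386), and 7 of 27 libraries matched best with their own number. With the replicate number as a block, 172 genes differed over the lines, 111 between WFB and RFB, 95 in RY998 and 95 in WR against mid-parent. It ended 1 call for a named gene, OsR498G0307156500.01 in WFB against R308. The part of depth in these counts was not tested.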
